A study of Mus musculus with 20 samples.

Results

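Liver RNA of db/db mice given a leaf extract (DLE) of the bamboo Dendrocalamus latiflorus was compared with that of db/db mice given saline, across all genes that passed a filter on low counts. The comparison holds 8 of the 16 libraries with counts in the series, 4 DLE and 4 model libraries, and 15744 of the 46078 genes in the table were tested. DLE was given at 200 mg/kg, and the saline group is called model, as in its labels. Pioglitazone at 20 mg/kg (PGZ) was given to 4 other db/db mice, and 4 wild-type C57BL/6J mice on saline form the normal group. The labels give 12 weeks of treatment. All DLE, PGZ and model animals carry the db mutation of the leptin receptor gene, so each of these groups lacks normal leptin signalling in every tissue, and no wild-type animal received DLE. Sex, age and, for the db/db mice, strain background are not given in the sources used here. White tea extract went to a further group, which was not analysed here.

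Mice without a working leptin receptor overeat, store fat in the liver and become insulin resistant. In the fed liver, insulin raises enzymes of glucose use and of fatty acid synthesis, whereas the nuclear receptor PPAR-alpha drives fatty acid oxidation. An inflamed liver secretes acute-phase proteins under the control of cytokines, and lowers many genes of bile acid, drug and lipid metabolism at the same time.

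Total counts were 18300173 to 24105179 in DLE and 17993327 to 25119799 in model libraries. Levels are CPM, the reads of a gene as a share of its library after TMM scaling, and a count of 3 reads corresponded to 0.126 to 0.153 CPM in a DLE and 0.124 to 0.161 CPM in a model library. Values are always listed in the order model_DLE_361, model_DLE_373, model_DLE_378 and model_DLE_401 for DLE, and model_327, model_329, model_387 and model_407 for model. Correlations of log2 CPM across genes were 0.946 to 0.972 between DLE libraries and 0.877 to 0.975 between model libraries, and no pair agreed within sampling noise. Nothing in the labels ties animals to cages, days or batches, and p-values measure only the spread between libraries. That spread was estimated over the 16 libraries of all 4 groups, not over the DLE and model libraries alone.

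Individual libraries stood apart, most of all in the model group. On the first principal component of the 8 libraries, which held 46.1% of the variance, the DLE libraries lay at -7.31, 27.6, 50.2 and 40.4 and the model libraries at -99.3, 44.6, -65.7 and 9.44. Saa1, a serum amyloid A protein that liver releases in inflammation, had 1974, 54.9, 221 and 73.4 CPM in DLE livers and 27780, 94.9, 10190 and 1360 CPM in model livers. Thus model_327 and model_387 held far more Saa1 RNA than any DLE library, and model_DLE_361 held the most among DLE libraries. Albumin (Alb), the main secreted protein of hepatocytes, had 79190, 48670, 26930 and 31650 CPM in DLE and 20270, 32170, 31120 and 29930 CPM in model livers, with model_DLE_361 the highest and model_327 the lowest. Reads of mitochondrially encoded genes made up 12.5% to 21.8% of DLE and 9.71% to 18.7% of model libraries. The RNA of the mutated gene itself, Lepr, was 3.18, 10.1, 12.9 and 19.8 CPM in DLE and 7.88, 3.33, 5.38 and 5.91 CPM in model livers. The ranges overlapped, and gene counts do not check the genotype.

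No gene passed the test between DLE and model livers. The quasi-likelihood test of edgeR, with p-values adjusted by Benjamini-Hochberg, called 0 of 15744 genes (0%) at an adjusted p under 0.05. The smallest adjusted p was 0.213. At an unadjusted p under 0.05 there were 763 genes higher with DLE (4.85% of those tested) and 1486 lower (9.44%). DESeq2 called 75 genes higher and 303 lower, limma voom with quality weights called 12, 9 higher and 3 lower, and a fit of the DLE and model libraries alone called 0. The 4 DLE values lay above all 4 model values for 252 genes (1.6%) and below them for 171 genes (1.09%). Protein-coding genes made up 167 of the 252 and 151 of the 171. A log2 fold change above 1 was fitted for 603 genes and one below -1 for 1437 genes, around a median of -0.02 over all genes. The account below therefore gives measured levels, and no single gene in it is a call of the edgeR test.

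A single library decided much of this count. Without model_329, whose acute-phase RNA was as low as that of the DLE libraries, edgeR called 511 genes, 89 higher and 422 lower. Leaving out any other single library gave at most 1 call, which was Fam25c without model_DLE_361. Fam25c, whose role in liver is not known here, had 53.4, 12.2, 12.3 and 10.9 CPM in DLE and 70.4, 28.7, 41.9 and 49.8 CPM in model livers, so that model_DLE_361 alone lay among the model livers. Without both model_327 and model_387 it called Slco1a1 alone, an organic anion uptake transporter of hepatocytes, at 3.13, 5.13, 4.73 and 3.49 CPM in DLE livers against 20.0 and 16.5 CPM in model_329 and model_407 (log2 fold change -2.15, adjusted p = 0.0185). The unadjusted counts then stood at 331 higher and 253 lower. In the full model group Slco1a1 spanned 0.341 to 20.0 CPM and was not called (adjusted p = 0.401).

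Among genes with a mean of at least 1 CPM, those with the smallest p on the higher side included Lingo4, a leucine-rich repeat membrane protein (GRCm38 chromosome 3, 94398517 to 94404501, plus strand). Lingo4 RNA was 11.2, 8.44, 15.5 and 37.5 CPM in DLE and 2.53, 5.16, 4.51 and 4.85 CPM in model livers, without overlap (log2 fold change 2.09, SE 0.42, unadjusted p = 0.000142, adjusted p = 0.213). Ppara, the gene of PPAR-alpha itself, had 30.2, 42.9, 69.7 and 70.2 CPM in DLE against 10.2, 31.5, 11.6 and 25.3 CPM in model livers (log2 fold change 1.44, SE 0.34, unadjusted p = 0.000624, adjusted p = 0.213). Its ranges overlapped only through model_DLE_361 and model_329. Ttc23, a tetratricopeptide repeat gene, was 49.4 to 83.03 CPM with DLE and 25.1 to 41.6 CPM in model livers. Chrna2, a nicotinic acetylcholine receptor subunit, was 4.50 to 5.43 CPM in DLE and 0.580 to 2.58 CPM in model livers. Abcd2 transports very long-chain fatty acids into peroxisomes and had 14.1, 8.84, 5.75 and 5.17 CPM in DLE and 1.31, 4.09, 2.94 and 2.64 CPM in model livers. Trim25, a ubiquitin ligase of antiviral signalling, was 55.1 to 86.7 CPM in DLE against 38.8 to 53.2 CPM in model livers. For Ttc23, Chrna2, Abcd2 and Trim25 the groups did not overlap. The 12 genes with the smallest p on this side also held 3 Riken transcripts without a known role and the microRNA gene Mir3968, which had 3.18, 2.72, 5.39 and 4.46 CPM in DLE and 0.389, 1.72, 1.20 and 0.978 CPM in model livers.

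On the lower side the smallest p of all belonged to Pde4b (chromosome 4, 102087543 to 102607259, plus strand), a phosphodiesterase that breaks down cyclic AMP and is known from inflammatory cells. Pde4b RNA was 6.70, 8.35, 10.03 and 10.7 CPM in DLE livers and 47.9, 17.6, 24.4 and 21.3 CPM in model livers, without overlap (log2 fold change -1.63, SE 0.29, unadjusted p = 3.17e-05, adjusted p = 0.213). Leaving out model_327 and model_387 left a log2 fold change of -1.12. Cdr2, an antigen of paraneoplastic cerebellar degeneration, was 0.0977, 0.625, 0.305 and 0.126 CPM with DLE and 7.68, 2.69, 2.32 and 1.91 CPM in model livers (log2 fold change -3.63, SE 0.70, unadjusted p = 8.90e-05, adjusted p = 0.213). In model_DLE_361 and model_DLE_401 that is 3 reads or fewer, while every model library held more. Lad1 encodes ladinin, a basement membrane protein of anchoring filaments, and was 0.841 to 3.47 CPM in DLE and 5.80 to 7.70 CPM in model livers. Its normal livers stood at 7.60 to 11.03 CPM.

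For several further genes on this side 1 model library set the scale. Cdc42ep2, an effector of the GTPase Cdc42 on actin, had 1.66, 2.05, 1.68 and 1.43 CPM in DLE and 4.57, 3.82, 16.6 and 4.04 CPM in model livers, the highest in model_387. Chst12, a chondroitin sulfotransferase, had 0.293, 0.179, 0.356 and 0.294 CPM in DLE and 0.973, 1.34, 7.37 and 1.02 CPM in model livers, and Neurl3, a ubiquitin ligase, had 1.56, 4.06, 4.12 and 3.66 CPM in DLE and 5.59, 9.25, 34.2 and 8.55 CPM in model livers. The groups of these 3 genes did not overlap. Clec4a3, a C-type lectin of myeloid cells, was 0.210 to 1.07 CPM in DLE and 0.807 to 20.8 CPM in model livers. The membrane proteins Ms4a6d and Ms4a6c of macrophages reached at most 1.07 and 1.47 CPM in DLE livers, against up to 42.7 and 38.4 CPM in model_387, and both were as low as with DLE in model_329. Ms4a6c and Ms4a6d are related genes, and it is not given in the sources used here how reads shared between genes were counted. The remaining 2 of the 12 genes on this side, Gm5828 and BE692007, carry no gene name. BE692007 (chromosome 19, 11470166 to 11484578, minus strand) overlaps Ms4a6c (11469366 to 11482192, plus strand). The strand setting of the counts is not given in the sources used here, so both may count the same reads. Slfn1, a Schlafen gene of lymphocytes and macrophages, and Nod2, an intracellular sensor of bacterial cell walls, were among the genes without overlap that had the largest fold changes. Slfn1 had 0.0489, 0.134, 0.509 and 0.252 CPM in DLE and 2.43, 0.538, 20.5 and 0.638 CPM in model livers, and Nod2 had 0.0489, 0.179, 0.204 and 0.337 CPM in DLE and 0.924, 0.430, 8.74 and 1.06 CPM in model livers.

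**Figure D1:**
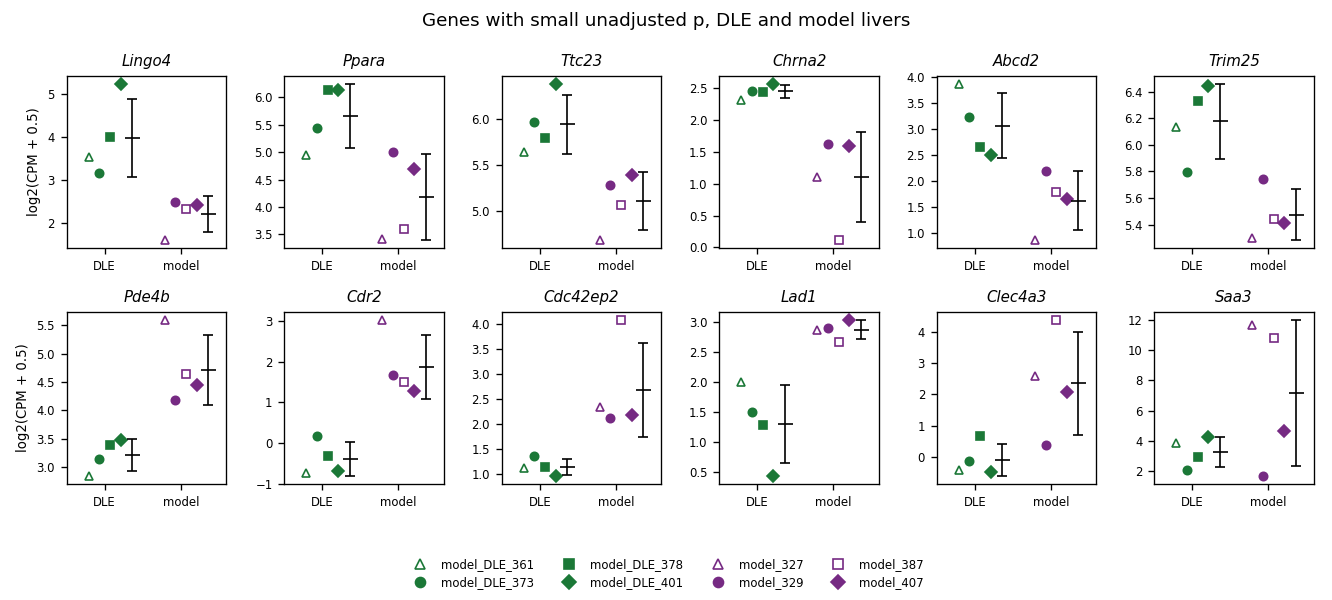
Levels of 6 genes higher and 6 genes lower with DLE, drawn from those with the smallest unadjusted p, as log2(CPM + 0.5) per library, with DLE on the left and model on the right of each panel. Symbols are libraries, open symbols mark model_DLE_361, model_327 and model_387, and bars are the mean ± SD of 4 libraries. Lingo4, Ttc23, Chrna2, Abcd2, Trim25, Pde4b, Cdr2, Cdc42ep2 and Lad1 separate the groups without overlap, whereas for Saa3 only model_327 and model_387 exceed the DLE range by a wide margin.

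Acute-phase RNA was far more abundant in model_327 and model_387 than in DLE livers, and was at DLE levels in model_329. Of 29 genes of this list, 28 had a fold change below 0, 16 of them at an unadjusted p under 0.05, and the median log2 fold change was -1.70 against -0.02 over all genes. Without model_327 and model_387 the median was 0.44. Saa3, a serum amyloid A made in macrophages as well as hepatocytes, had 13.9, 3.75, 7.02 and 18.5 CPM in DLE and 3148, 2.69, 1783 and 24.1 CPM in model livers (log2 fold change -6.84, SE 1.54, unadjusted p = 0.000438, adjusted p = 0.213). Lcn2 encodes lipocalin 2, which binds bacterial siderophores, and had 1023, 42.4, 88.6 and 66.4 CPM in DLE and 11950, 49.9, 4372 and 392 CPM in model livers (log2 fold change -3.78, SE 1.42, unadjusted p = 0.0172, adjusted p = 0.26). Cd14, a co-receptor for lipopolysaccharide, had 7.18, 3.66, 2.80 and 1.98 CPM in DLE and 434, 2.097, 152 and 4.68 CPM in model livers (log2 fold change -5.25, SE 1.24, unadjusted p = 0.000711, adjusted p = 0.213). In all of these genes model_329 lay within or below the DLE range. The 1 member with a higher level in every DLE library was Hamp, described below with iron.

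Cytokine and chemokine genes showed a like division of the model group. Of 25 tested, 23 were below 0 and 16 of these had an unadjusted p under 0.05, with a median log2 fold change of -2.21, or -0.10 without model_327 and model_387. Tlr2, a receptor for bacterial lipoproteins, had 1.76, 3.44, 1.32 and 2.15 CPM in DLE and 158, 1.29, 43.9 and 3.40 CPM in model livers. Socs1, an inhibitor of cytokine receptors that is also counted among genes of insulin signalling, had 0.196, 0.536, 0.713 and 1.47 CPM in DLE and 23.4, 0.0538, 34.4 and 0.893 CPM in model livers. Among 26 interferon-stimulated genes 21 were below 0 and 13 of them had an unadjusted p under 0.05, and their median of -0.96 became 0.17 without the same model libraries.

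Genes of the endoplasmic reticulum stress response divided the model group in another way, with model_327 far above model_387. Of 25 members 22 were below 0, 15 of them at an unadjusted p under 0.05, and the median of -1.22 became 0.00 without model_327 and model_387. Sdf2l1, a partner of the chaperone BiP, had 7.43, 2.77, 1.53 and 1.77 CPM in DLE and 241, 4.89, 27.6 and 7.02 CPM in model livers. Manf, a secreted stress protein of this compartment, had 35.8, 32.5, 14.8 and 20.3 CPM in DLE and 640.2, 18.9, 80.3 and 31.6 CPM in model livers. Hmox1, which degrades heme and stands among 26 antioxidant genes tested, had 6.30, 10.8, 7.89 and 9.17 CPM in DLE and 129, 5.81, 84.8 and 15.0 CPM in model livers. That antioxidant list as a whole had a median of 0.14, with 15 members above 0 and 11 below. Ptpn1 encodes the phosphatase that acts on the insulin receptor and on JAK2, and had 21.3, 15.4, 14.1 and 17.9 CPM in DLE and 122, 14.1, 109 and 20.8 CPM in model livers. The list of leptin receptor signalling that holds it had 3 of 10 members above 0. Its median of -0.58 became -0.08 without model_327 and model_387. Insulin signalling genes were divided 11 to 11 with a median of -0.02.

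No marker of resident macrophages passed the test, and the list was highest in model_387 and model_407, with model_327 and model_329 in the DLE range of list means. All 16 Kupffer cell markers had a fold change below 0, 12 of them at an unadjusted p under 0.05, with a median of -1.61 that became -0.91 without model_327 and model_387. The mean log2(CPM + 0.5) of the list was 3.19 to 3.78 in DLE libraries, and 3.37, 3.37, 5.97 and 4.84 in the model libraries. Their summed level was 267 to 411 CPM in DLE and 263 to 2093 CPM in model livers. Adgre1, the gene of the macrophage antigen F4/80, was 1.91, 0.982, 1.99 and 0.883 CPM in DLE and 3.75, 2.15, 28.2 and 6.89 CPM in model livers, without overlap (log2 fold change -2.83, SE 0.65, unadjusted p = 0.000458, adjusted p = 0.213). C1qc, a subunit of complement C1q that macrophages produce, was 8.55, 23.0, 16.3 and 12.7 CPM in DLE and 27.3, 10.3, 141 and 48.1 CPM in model livers, with model_329 in the DLE range. Timd4, a receptor for dying cells on long-lived Kupffer cells, was 2.35 to 2.94 CPM with DLE and 2.24, 3.71, 50.1 and 8.80 CPM in model livers. Clec4f, the lectin that defines Kupffer cells, differed little between the group means. It had 71.2, 57.6, 105 and 69.3 CPM in DLE and 11.8, 85.6, 14.8 and 196 CPM in model livers (log2 fold change -0.03, SE 0.69, unadjusted p = 0.971, adjusted p = 0.991), lowest in model_327 and model_387 and highest in model_407. In whole-liver RNA fewer cells of a type and less RNA per cell cannot be told apart.

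Markers of recruited macrophages had their highest list mean in model_387 and their highest summed level in model_327, and none passed the test. The mean log2(CPM + 0.5) of the list was 1.51, 2.23, 1.33 and 1.42 in the DLE libraries, and 3.10, 1.25, 4.43 and 2.34 in the model libraries. The summed level was 124, 185, 96.8 and 104 CPM in DLE and 1150, 118, 750 and 186 CPM in model livers. Of 17 markers, 16 were below 0, 9 of them at an unadjusted p under 0.05, and the median of -1.55 became -0.36 without model_327 and model_387. Ccr2, the receptor that brings monocytes into tissue, had 2.05, 2.46, 2.60 and 2.94 CPM in DLE and 8.03, 2.69, 57.2 and 4.59 CPM in model livers. Capg, an actin-capping protein of macrophages, had 2.30, 4.24, 2.65 and 3.03 CPM in DLE and 7.15, 3.39, 46.9 and 6.89 CPM in model livers. Spp1, osteopontin, which bile duct cells make too, had 45.1, 73.5, 45.4 and 50.1 CPM in DLE livers and 939, 71.3, 55.7 and 68.1 CPM in model livers, so that only model_327 stood out.

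Neutrophil markers were near the limit of detection in most livers. All 12 tested of 15 were below 0, 9 of them at an unadjusted p under 0.05. Their median of -4.80 turned to 1.34 without model_327 and model_387. The mean log2(CPM + 0.5) of the list was 2.415, -0.546, 0.160 and -0.033 in the DLE libraries, the highest in model_DLE_361. In the model libraries it was 1.36, -0.274, 6.78 and 0.709. The summed level was 4.29 to 191 CPM in DLE and 7.10 to 2401 CPM in model livers. Mpo, the myeloperoxidase of neutrophil granules, had 4.98, 0, 0.153 and 0 CPM in DLE and 0.0486, 0, 244 and 0.595 CPM in model livers, and was without a read in model_DLE_373, model_DLE_401 and model_329, which allows up to 0.134, 0.126 and 0.161 CPM there. Cxcr2, the receptor by which neutrophils follow chemokines, had 0.0977, 0.0447, 0.0509 and 0.168 CPM in DLE and 1.26, 0.269, 10.5 and 0.170 CPM in model livers. It is the 1 marker without overlap, but model_407 was barely above model_DLE_401, and the DLE values correspond to a few reads each. Lymphocyte markers had 9 of 10 members below 0 and a median of -1.297, or -0.06 without the same libraries. The part of these cell types in the differences of inflammatory genes was not tested.

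**Figure D2:**
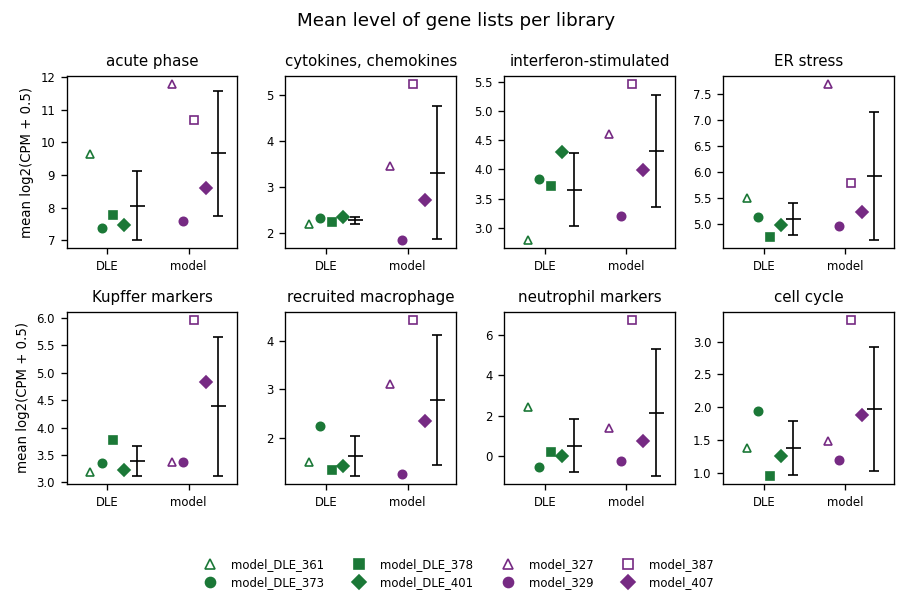
Mean log2(CPM + 0.5) of 8 gene lists in each library, with DLE on the left and model on the right of each panel. Symbols are libraries, open symbols mark model_DLE_361, model_327 and model_387, and bars are the mean ± SD of 4 libraries. In the acute-phase panel the DLE libraries stand at 7.37 to 9.64, against 11.8 and 10.7 in model_327 and model_387 and 7.58 in model_329.

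RNA of dividing cells was highest in model_387. Mki67, a protein of proliferating cells, had 1.51, 4.29, 1.32 and 1.51 CPM in DLE and 1.95, 0.753, 76.5 and 6.89 CPM in model livers (log2 fold change -3.31, SE 1.10, unadjusted p = 0.00833, adjusted p = 0.223). Of 26 cell cycle genes 23 were below 0, 9 of them at an unadjusted p under 0.05, and the median of -1.08 became -0.21 without model_327 and model_387. Lists of other cell types gave no common direction. Stellate and matrix genes had 13 of 21 members above 0 (median 0.35), endothelial genes 7 of 15 (median -0.05), bile duct genes 1 of 7 (median -0.46) and hepatocyte genes 9 of 15 (median 0.13). Foxa2, a transcription factor of hepatocytes, had 50.5, 41.4, 65.9 and 65.7 CPM in DLE and 30.2, 54.1, 29.4 and 39.4 CPM in model livers. Endothelial genes had the lowest list mean of all 8 libraries in model_DLE_361, at 2.36 on the log2 scale. Adipoq, Lep, Plin1, Retn and Ucp1 did not pass the low-count filter, and of the 12 pancreas genes only Cela1 did (log2 fold change -0.03).

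**Figure D3:**
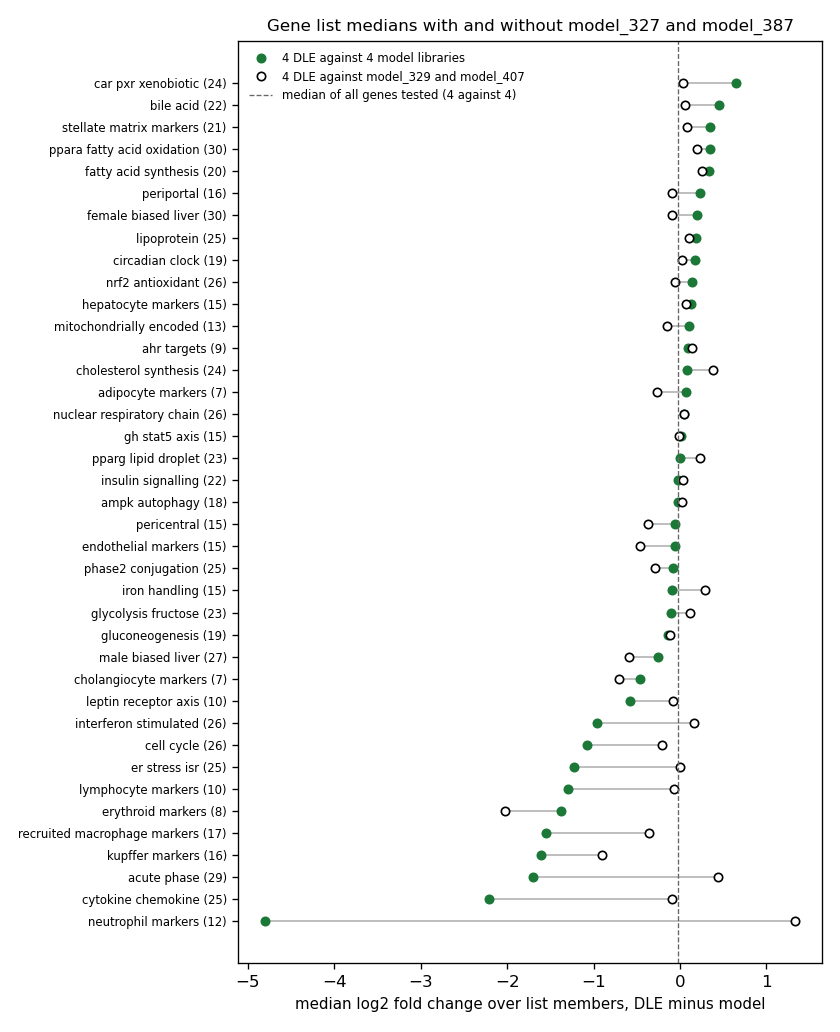
Median log2 fold change, DLE minus model, over the tested members of each gene list with at least 5 of them (the number is given with the name). Filled circles use all 8 libraries, open circles leave out model_327 and model_387, and the dashed line is the median of all genes tested. Neutrophil, cytokine, acute-phase, endoplasmic reticulum stress and interferon medians lie well below 0 only with model_327 and model_387, whereas the erythroid median lies at -1.38 with them and at -2.02 without them.

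Genes of sugar use showed no common direction. Slc37a4 carries glucose 6-phosphate into the endoplasmic reticulum for glucose release and had 174, 169, 210.5 and 218 CPM in DLE and 49.7, 153, 101 and 159 CPM in model livers. Khk, ketohexokinase, the first enzyme of fructose use, had 597, 672, 573 and 793 CPM in DLE and 384, 475, 425 and 510.5 CPM in model livers. Both separated the groups, Slc37a4 by a narrow margin over model_407 and model_329. Pfkfb3, which makes the activator of glycolysis fructose 2,6-bisphosphate, had 4.11, 9.64, 6.77 and 7.74 CPM in DLE and 58.3, 6.56, 24.1 and 11.5 CPM in model livers, the highest again in model_327 and model_387. Over the lists, 9 of 19 gluconeogenesis genes were above 0 (median -0.14) and 11 of 23 genes of glycolysis and fructose use were (median -0.10).

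Fatty acid synthesis genes had 14 of 20 members above 0 and a median of 0.34, or 0.25 without model_327 and model_387. At an unadjusted p under 0.05 there were 4 members higher and 3 lower, and the lowest log2 fold change was -1.91. Without overlap, 1 member lay above and 1 below the model livers. Acaca, the acetyl-CoA carboxylase that commits carbon to fatty acids, had 70.8, 124, 79.7 and 112 CPM in DLE and 49.3, 66.3, 61.4 and 59.6 CPM in model livers, without overlap (log2 fold change 0.71, SE 0.22, unadjusted p = 0.00514, adjusted p = 0.218). Fasn, fatty acid synthase, had 299, 572, 288 and 817 CPM in DLE and 313, 256, 225 and 279.5 CPM in model livers. It was high in model_DLE_373 and model_DLE_401, and the other DLE livers lay in the model range. Gpam catalyses the first step of triglyceride synthesis and had 26.7, 47.6, 57.9 and 77.7 CPM in DLE and 12.8, 30.6, 10.5 and 28.2 CPM in model livers (log2 fold change 1.35, SE 0.37, unadjusted p = 0.00188, adjusted p = 0.213). Cholesterol synthesis genes were divided 13 to 11 with a median of 0.08. Among 25 lipoprotein genes 18 were above 0, with a median of 0.19.

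The list of PPAR-alpha and its targets in fatty acid oxidation had 23 of 30 members above 0. Of these, 5 had an unadjusted p under 0.05, Ppara itself among them, and none of the other members did. The median was 0.34, or 0.19 without model_327 and model_387. Pex11a, which divides peroxisomes, had 149, 231, 188 and 459 CPM in DLE and 131, 130.0, 67.5 and 144 CPM in model livers, without overlap (log2 fold change 1.12, SE 0.35, unadjusted p = 0.00574, adjusted p = 0.218). Acot3, a peroxisomal acyl-CoA thioesterase with near-identical neighbours, had 72.9, 106, 208 and 306 CPM in DLE and 3.55, 99.97, 2.24 and 39.9 CPM in model livers, and model_329 held more than model_DLE_361. G0s2, an inhibitor of adipose triglyceride lipase, was 214 to 417 CPM in DLE and 51.9 to 169 CPM in model livers. The list of PPAR-gamma and lipid droplet genes that holds G0s2 was divided 10 above and 13 below 0 (median 0.00). Ces1d, a carboxylesterase that hydrolyses triglyceride, had 773, 776, 1219 and 1792 CPM in DLE and 30.2, 754, 79.0 and 526 CPM in model livers. The 4 DLE livers were above every model liver, over model_329 by a narrow margin. Hdc makes histamine from histidine and had 114, 145, 127 and 221 CPM in DLE and 13.0, 70.8, 33.6 and 95.3 CPM in model livers, also without overlap (log2 fold change 1.51, SE 0.45, unadjusted p = 0.00407, adjusted p = 0.213).

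Genes of drug and bile acid metabolism were the lists with the highest medians. The list of the receptors CAR and PXR and of genes they regulate had 22 of 24 members above 0. Its median of 0.65 became 0.04 without model_327 and model_387. Only the 2 receptor genes themselves had an unadjusted p under 0.05. Nr1i2, the gene of PXR, had 146, 185, 159.9 and 256 CPM in DLE and 33.1, 143, 53.0 and 106 CPM in model livers, with no overlap (log2 fold change 1.16, SE 0.35, unadjusted p = 0.00452, adjusted p = 0.214). Nr1i3, the gene of CAR, had 879, 1201, 2608 and 1589 CPM in DLE and 52.8, 1414, 256 and 672 CPM in model livers, where model_327 and model_387 were the lowest and model_329 lay among the DLE livers. Cyp3a11, a cytochrome P450 induced through PXR and one of a family of near-identical copies, had 1901, 1933, 1114 and 1489 CPM in DLE and 421, 1436, 346.1 and 1059 CPM in model livers. Fmo2, a flavin monooxygenase counted in the female-biased list, had 48.3, 72.0, 123 and 145 CPM in DLE and 4.04, 55.5, 13.1 and 40.8 CPM in model livers. Of 22 bile acid genes 20 were above 0, with a median of 0.45 that became 0.05. Conjugating enzymes were below 0 in 15 of 25 (median -0.08), and 5 of 9 targets of the aryl hydrocarbon receptor were above 0 (median 0.09).

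**Figure D4:**
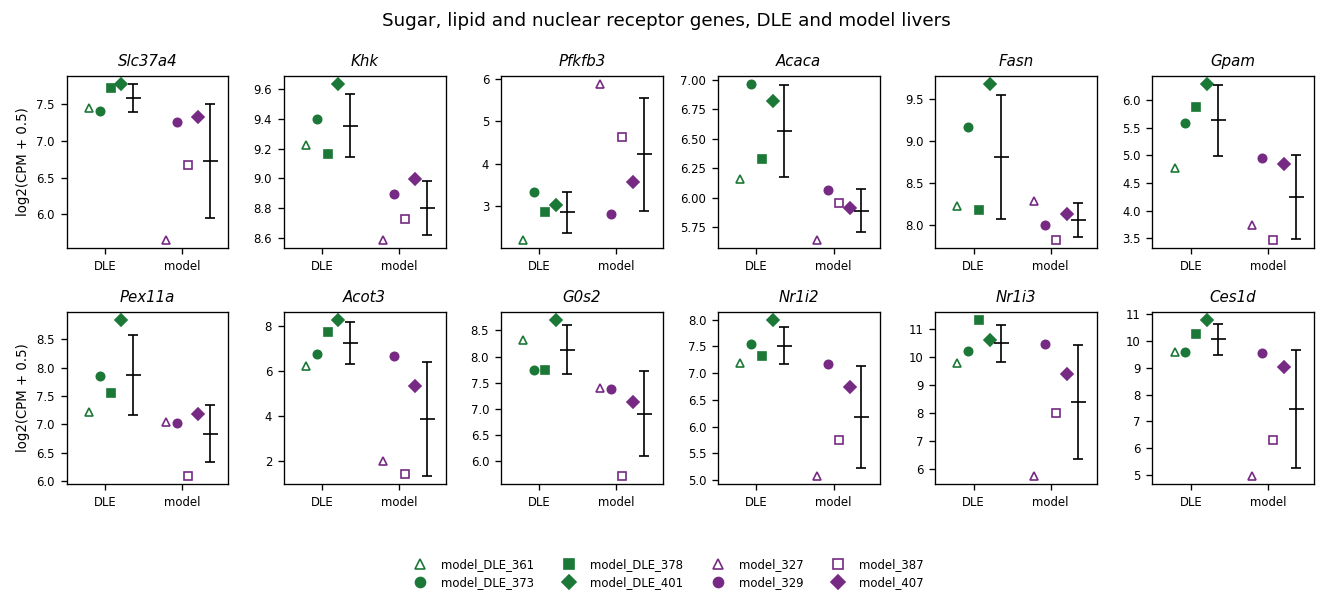
Levels of 12 genes of sugar use, lipid metabolism and nuclear receptors as log2(CPM + 0.5) per library, with DLE on the left and model on the right of each panel. Symbols are libraries, open symbols mark model_DLE_361, model_327 and model_387, and bars are the mean ± SD of 4 libraries. Slc37a4, Khk, Acaca, Pex11a, G0s2, Nr1i2 and Ces1d separate the groups, while for Nr1i3 the low model values are those of model_327 and model_387.

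Hepcidin (Hamp), the liver hormone that blocks iron release into blood, was higher in every DLE liver than in any model liver. Hamp RNA was 738, 497, 1350 and 1694 CPM in DLE and 332, 440.0, 423 and 408.3 CPM in model livers (log2 fold change 1.42, SE 0.39, unadjusted p = 0.00216, adjusted p = 0.213), and 1.33 was the log2 fold change without model_327 and model_387. Hepcidin is induced by bone morphogenetic proteins through SMAD factors and by interleukin 6 through STAT3. Other targets of the SMAD branch were measured beside it. Id1 had 15.5, 20.8, 29.2 and 45.0 CPM in DLE and 5.88, 6.45, 11.9 and 13.1 CPM in model livers, without overlap (log2 fold change 1.56, SE 0.49, unadjusted p = 0.00543, adjusted p = 0.218). Smad7, a feedback inhibitor of the branch, had 6.70, 10.8, 28.0 and 18.4 CPM in DLE and 4.52, 7.10, 6.79 and 9.36 CPM in model livers (log2 fold change 1.20, SE 0.42, unadjusted p = 0.0113, adjusted p = 0.239). Its ranges overlapped at model_DLE_361. The iron list as a whole had 7 of 15 members above 0 and a median of -0.10.

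Cish encodes a feedback inhibitor of cytokine receptors that is induced by STAT5 after growth hormone. It had 11.9, 6.52, 16.8 and 14.1 CPM in DLE and 45.2, 34.0, 30.6 and 24.6 CPM in model livers, below every model liver (log2 fold change -1.45, SE 0.37, unadjusted p = 0.00118, adjusted p = 0.213). Leaving out model_327 and model_387 left -1.25. Promoters of Hamp and Cish are shown because these genes, with known STAT and SMAD control, separated the groups in opposite directions. They run from 250 bases before to 50 after the start site in RefSeq on GRCm38.p6, with matches of the STAT motif TTCNNNGAA and of the BMP-SMAD motif GGCGCC in capitals. Both motifs read the same on the other strand, and neither overlaps the other.
Hamp promoter, chr7:30943980-30944279, minus strand: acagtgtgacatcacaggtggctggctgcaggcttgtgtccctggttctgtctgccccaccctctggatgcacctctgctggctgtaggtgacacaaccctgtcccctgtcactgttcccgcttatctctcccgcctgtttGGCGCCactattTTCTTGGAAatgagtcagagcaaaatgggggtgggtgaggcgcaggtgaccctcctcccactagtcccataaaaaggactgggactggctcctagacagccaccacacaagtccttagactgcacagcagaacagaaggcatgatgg
Cish promoter, chr9:107296409-107296708, plus strand: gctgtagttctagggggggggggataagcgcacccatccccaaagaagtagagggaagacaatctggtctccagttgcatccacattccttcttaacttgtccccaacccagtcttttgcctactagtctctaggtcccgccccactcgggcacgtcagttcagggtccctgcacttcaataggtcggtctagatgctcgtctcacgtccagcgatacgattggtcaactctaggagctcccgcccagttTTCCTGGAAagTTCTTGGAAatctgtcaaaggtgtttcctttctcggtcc
The Hamp promoter held 1 match of each motif, beginning 97 bases (STAT) and 109 bases (BMP-SMAD) before the start site. The Cish promoter held 2 matches of the STAT motif, beginning at bases 1 and 12 counted from the start site, and none of the BMP-SMAD motif. Among 32851 promoters of this length 8.3% held the STAT motif and 11.9% held GGCGCC. Such matches describe the letters and do not show that a factor binds.

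Socs2, another STAT5 target, did not go with Cish. It had 49.2, 11.6, 29.8 and 11.5 CPM in DLE and 5.93, 14.6, 12.6 and 12.9 CPM in model livers, higher in model_DLE_361 and model_DLE_378 only. Cux2, a transcription factor of female-type liver, had 8.94, 1.65, 27.7 and 88.7 CPM in DLE and 0.243, 15.3, 0.663 and 0.425 CPM in model livers, and spread widely inside both groups. Over the growth hormone list 8 of 15 genes were above 0 (median 0.01). Genes known as male-biased in liver had 18 of 27 below 0 (median -0.25), and female-biased genes had 20 of 30 above 0 (median 0.20, or -0.09 without model_327 and model_387). Selenbp2, a male-biased selenium-binding protein, had 7.67, 4.73, 7.23 and 7.99 CPM in DLE and 2.48, 3.33, 5.26 and 3.53 CPM in model livers, against 3990 to 4397 CPM in normal livers. Ugt2b38, a glucuronosyltransferase with near-identical copies, had 1.37, 0.223, 0.356 and 0.421 CPM in DLE and 18.8, 1.72, 1.32 and 0.851 CPM in model livers.

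No red cell gene passed the test, and the list was highest in model_329 and model_407. Of 8 tested, 6 had a fold change below 0, each of them at an unadjusted p under 0.05, and Klf1 and Car2 were above 0. The median over the 8 was -1.38 and became -2.02 without model_327 and model_387. Alas2, the heme synthesis enzyme of erythroid cells, had 40.3, 25.9, 27.3 and 16.6 CPM in DLE and 44.9, 65.7, 48.7 and 59.8 CPM in model livers, without overlap (log2 fold change -0.99, SE 0.31, unadjusted p = 0.00482, adjusted p = 0.217). Hbb-bt, a beta globin, had 5.82, 12.2, 13.8 and 8.75 CPM in DLE and 8.22, 62.2, 22.1 and 57.7 CPM in model livers. Hba-a1, an alpha globin, had 36.3, 128, 172 and 93.6 CPM in DLE and 65.1, 530.4, 201 and 334 CPM in model livers. Both globins were high in model_329 and model_407 and nearer to the DLE range in model_327 and model_387. The mean log2(CPM + 0.5) of the list was 3.50 to 4.42 in DLE libraries, and 3.35, 5.77, 4.61 and 5.42 in the model libraries. Globin genes have near-identical copies. The summed level of the list was 168 to 371 CPM in DLE and 190 to 1141 CPM in model livers, and the part of blood left in the tissue was not tested.

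**Figure D5:**
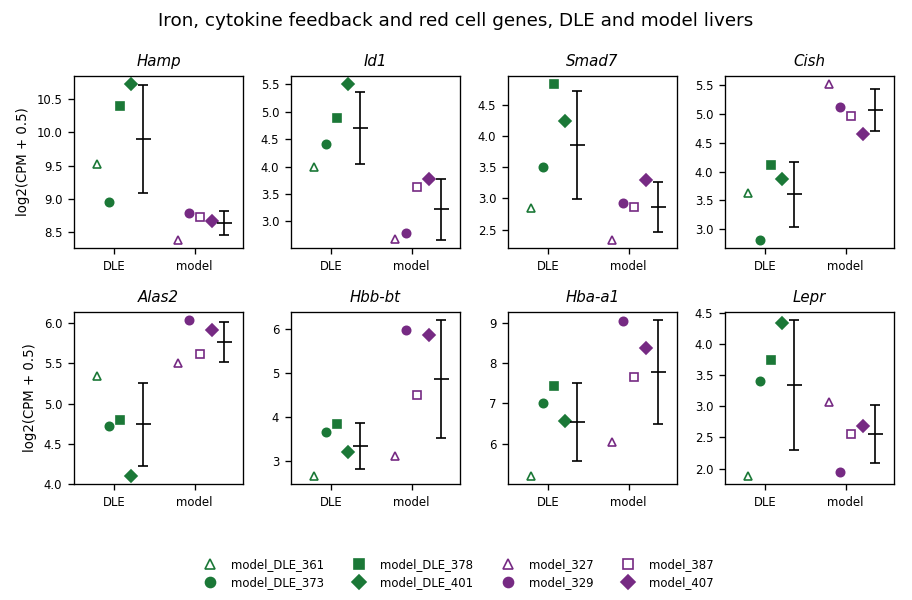
Levels of iron, cytokine feedback and red cell genes and of Lepr as log2(CPM + 0.5) per library, with DLE on the left and model on the right of each panel. Symbols are libraries, open symbols mark model_DLE_361, model_327 and model_387, and bars are the mean ± SD of 4 libraries. Hamp and Id1 lie above and Cish and Alas2 below all model libraries, and the globins are highest in model_329 and model_407.

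Clock genes had 12 of 19 members above 0, with a median of 0.18, or 0.02 without model_327 and model_387. Hlf, a clock output factor, was 42.5 to 47.7 CPM in DLE and 18.3 to 38.8 CPM in model livers, without overlap. Cry2, a repressor of the clock, had 31.4, 37.4, 52.7 and 41.7 CPM in DLE and 14.1, 33.5, 14.7 and 28.1 CPM in model livers, and Per2, another, had 108, 145, 211 and 201 CPM in DLE and 74.8, 136, 74.1 and 110.4 CPM in model livers. In each, model_327 and model_387 were the lowest. The hour of tissue collection was not among the labels. Mitochondrially encoded genes had 11 of 13 members above 0 (median 0.11), nuclear genes of the respiratory chain 17 of 26 (median 0.05), and genes of AMPK and autophagy 9 of 18 (median -0.03). Pericentral genes had 6 of 15 above 0 (median -0.05) and periportal genes 12 of 16 (median 0.23). The 7 adipocyte genes tested had a median of 0.07.

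Set beside PGZ, DLE livers differed in 1 called gene. edgeR called Sdcbp2, a syntenin, at 2.59, 0.982, 0.305 and 1.01 CPM in DLE livers against 18.8 to 43.0 CPM in PGZ livers (log2 fold change DLE minus PGZ -4.49, SE 0.59, adjusted p = 0.0138), which is 0.00635% of genes tested. An unadjusted p under 0.05 was found for 1516 genes. No gene was called without model_DLE_401, model_PGZ_360 or model_PGZ_404, 2 without model_DLE_361, 4 without model_DLE_373 and 11 without model_PGZ_328. Both treated groups were compared with the same model livers, so their fold changes share those libraries. For the genes above, the log2 fold change against model was -1.63 with DLE and -1.40 with PGZ for Pde4b, 1.62 with DLE and 2.70 with PGZ for Abcd2 and 1.42 with DLE and 0.38 with PGZ for Hamp. None of these 3 was called between DLE and PGZ by the edgeR test (adjusted p = 0.765, 0.477 and 0.477). In PGZ livers Hamp spanned 364 to 871 CPM, Id1 7.41 to 51.85 CPM and Smad7 6.30 to 22.8 CPM. The log2 fold change of PGZ against model was 1.41 for Id1 and 0.88 for Smad7. Against the normal group, edgeR called 1429 genes in model livers (9.08%), and in PGZ livers 2 against the model group (0.0127%).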

How the data were processed

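The authors deposited raw counts, 1 whole number per Ensembl gene and library. Alignment to GRCm38 and counting are not described step by step, but the tools HISAT2 2.1.0, StringTie 1.3.3b, FastQC 0.11.5, CASAVA 1.8.2 and DESeq2 1.28.0 are listed, per the submitters' processing notes. TRIzol extraction and DNase treatment came before standard Illumina library preparation, per the labels' protocols. The annotation, strand setting and counting of shared reads are not given in the sources used here, so near-identical, overlapping and antisense genes are uncertain. Intervals and floors cover counting error only.

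Groups came from the labels. Symbols and coordinates came from GENCODE M21 on GRCm38, which held 98.2% of the 46078 genes, and promoters from RefSeq on GRCm38.p6. In R 4.3.3, edgeR 4.0.16 was run on the 16 libraries together, with filterByExpr, TMM scaling and a robust quasi-likelihood fit of all 4 groups. Tests are two-sided, p-values were adjusted by Benjamini-Hochberg over all genes tested, and genes were called at an adjusted p under 0.05. The SE of a log2 fold change is an approximation, its absolute value divided by the square root of the quasi-likelihood F statistic. The procedure was tested on simulated data. The white tea columns held no values, although the design had included that group. limma 3.58.1, DESeq2 1.42.0, other scalings and filters, and left-out libraries were alternatives. Python 3.11.15 with matplotlib 3.10.9 drew the figures.

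The comparison and its 40 gene lists (799 entries, 756 of them tested) were chosen with earlier results of these data known. Named genes are the 12 higher and 12 lower with the smallest p at a mean of at least 1 CPM (5 unnamed transcripts omitted), up to 2 members per list with the smallest p, the 6 largest fold changes among groups without overlap, and Lepr, Saa1, Lcn2, Alb, Mpo and Clec4f. The 14 others were chosen after their values were seen: Timd4, Hba-a1, Smad7, Cux2, Khk, Fasn, Cyp3a11, Hlf, Per2, Slco1a1, Fam25c, Ces1d, Hdc and Sdcbp2. Some genes that this rule names are not reported here.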

Additional observations from a re-analysis of the deposited data

Results flagged for a closer look

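In groups of 4 libraries, 1 value can lie so far from the other 3 that the gap exceeds Dixon's 95% critical share of the whole range. This was looked for in 73 genes and 40 list means, in the DLE and in the model group, and chance flags about 1 in 20 groups (5%). Of the 226 groups tested, 19 (8.41%) were flagged.

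Among DLE livers model_DLE_361 was flagged most often. It held 53.4 CPM of Fam25c, against 10.9 to 12.3 CPM in the other DLE livers, and 4.98 CPM of Mpo, against at most 0.153 CPM. Its Neurl3 level of 1.56 CPM was below the 3.66 to 4.12 CPM of the others. Its mean log2(CPM + 0.5) was 2.36 for endothelial markers, 1.497 for bile duct markers and 8.71 for lipoprotein genes. In the other DLE livers those means were 3.79 to 3.998, 1.96 to 2.03 and 8.41 to 8.46. The library model_DLE_373 held 4.29 CPM of Mki67, against 1.32 to 1.51 CPM in the other DLE livers.

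Among model livers model_387 was high in Mpo (244 CPM, against at most 0.595 CPM), Cdc42ep2 (16.6 CPM, against 3.82 to 4.57 CPM) and Chst12 (7.37 CPM, against 0.973 to 1.34 CPM). It was low in Pex11a (67.5 CPM, against 130 to 144 CPM), G0s2 (51.9 CPM, against 140 to 169 CPM) and Sdcbp2 (0.166 CPM, against 0.430 to 0.468 CPM). The library model_327 held 939 CPM of Spp1, against 55.7 to 71.3 CPM, 5.93 CPM of Socs2, against 12.6 to 14.6 CPM, and 20270 CPM of Alb, against 29930 to 32170 CPM. Its mean log2(CPM + 0.5) was 5.78 for cholesterol synthesis, against 4.89 to 4.95, and 3.27 for targets of the aryl hydrocarbon receptor, against 3.86 to 3.97. In model_329 Cux2 stood at 15.3 CPM, against 0.243 to 0.663 CPM in the other model livers.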

How the results depend on the processing

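No paired analysis was possible because the replicate numbers are animal numbers that no 2 groups share. RLE and upper-quartile scaling, no filter, a stricter filter (14245 genes), the fit of DLE and model libraries only, a fit without robust dispersions, glmTreat with a fold of 1.5 and an adjusted p under 0.1 each left 0 calls. DESeq2 called 75 genes higher and 303 lower, with 105 adjusted p-values not given, and limma voom 12 (9 and 3). Among the 73 named genes DESeq2 called 39. Leaving out 1 library gave 0 to 511 calls (0 to 89 higher, 0 to 422 lower), 498 to 1614 genes higher and 936 to 2305 lower at an unadjusted p under 0.05, and 364 to 901 genes above and 273 to 742 below without overlap. Fewer libraries make non-overlap easier to reach. DLE versus PGZ had 0 to 11 calls. At an unadjusted p under 0.05 the fit of DLE and model libraries only gave 344 higher and 745 lower, and limma voom 1489 higher (53.2% of its calls at that level, against 33.9% with edgeR).

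Without model_327 and model_387, chosen after seeing the data, 1 gene was called (0 higher, 1 lower), 331 were higher and 253 lower at an unadjusted p under 0.05, and 772 and 700 did not overlap. Leaving out model_DLE_361 as well gave 2 calls (both lower), 479 and 359, and 1613 and 1591. Of the named genes 67 kept the sign of their fold change under every alternative. Without model_327 and model_387 the sign turned for Lcn2 (0.47), Cd14 (0.20), Socs1 (0.59), Manf (0.030) and Mpo (1.995). With model_DLE_361 left out too, Socs1 stayed above 0 (0.89), but Lcn2 (-1.76), Cd14 (-0.29), Manf (-0.18) and Mpo (-2.64) were below 0 again. Leaving out single libraries gave -10.2 to 2.46 for Mpo, which turned without model_387, and -0.38 to 1.02 for Clec4f. The cause was not tested. With 4 libraries a group, the spread between animals, not read depth, limits most comparisons, and genes under about 0.15 CPM rest on 3 reads or fewer.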
